A study of Mus musculus with 3 samples.

Results

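Lymphoid priming is the low-level transcription of lymphocyte genes in progenitors that still belong to the stem cell compartment. It was described here through 8 genes, Dntt, Ikzf1, Cd27, Satb1, Notch1, Bcl11a, Mn1 and Tcf3, of the 24982 gene symbols measured. The genes were taken by symbol and were selected on earlier results of these same libraries, above all the count of 0 for Dntt in the CD73 KO library. Their KO and WT values are therefore a description with no test. All 8 symbols were found. All 8 reached 10 counts in at least 1 library, and 4 reached 50 (Dntt, Ikzf1, Cd27 and Tcf3).

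RNA was sequenced from LKS cells (Lin-Kit+Sca1+), the bone marrow compartment of stem cells and early progenitors, isolated by flow cytometry. The KO group is 1 library from CD73-/- recipient mice, and the WT group is 2 libraries from WT recipient mice. CD73 is the surface enzyme, encoded by Nt5e, that makes adenosine from AMP outside the cell. The labels give no strain, age or transplant detail, do not say whether the cells came from a donor or the recipient, and also call the samples LLP cells without explaining the term. They do not say that the WT libraries are separate mice, so their spread, and every p-value below, may be technical.

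The KO library held 264704 gene-level counts, against 361638 and 324954 in the WT libraries. Values are given as CPM, counts scaled to a library total of 1e6 gene counts. The limit that a count of 0 allows, 3 counts, corresponds to 11.3 CPM in KO and to 8.30 and 9.23 CPM in WT. Nt5e had 0 counts in KO and 0 in both WT libraries, so it could not check the genotype label. Of the genes behind the sort, Kit had 555 CPM in KO and 517 and 637 CPM in WT, and Ly6a, a gene of the Sca1 antigen, had 136 CPM in KO and 166 and 58.5 CPM in WT.

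Progenitors that lean toward the lymphoid fate begin to transcribe lymphocyte genes before they lose myeloid potential. In mice this step depends on Ikaros, encoded by Ikzf1, and on the E proteins E12 and E47, encoded by Tcf3. Terminal deoxynucleotidyl transferase, encoded by Dntt, is among the earliest lymphocyte genes to be transcribed.

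Dntt had no counts in the KO library and was detected in both WT libraries. Mn1 also had no counts in KO, but the lower of its WT values was under the limit that a KO count of 0 allows. Cd27 was lower in KO than in both WT libraries, by less than 2-fold. For Ikzf1, Bcl11a and Satb1 the KO value lay between the WT values, and for Notch1 and Tcf3 it was close to the higher WT value. For 6 of the 8 genes, all but Cd27 and Tcf3, the WT libraries were themselves at least 2-fold apart, as they were for 56.2% of the 8449 genes with 10 counts or more in any library.

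On the scale of CPM plus 1, KO was at least 2-fold lower than each WT library for 2 of the 8 genes, Dntt and Mn1, and at least 2-fold higher for 0. For Mn1 this rests on the added 1 CPM: with KO set to the limit of 3 counts, no 2-fold bound holds against WT replicate 1. Among the 8449 genes 23.5% were lower and 13.4% higher by the same rule. Of the 4 members with 50 counts or more, 1 (Dntt) was lower and 0 were higher, where 17.9% and 9.25% of 2831 genes were. KO lay below both WT libraries for 3 of the 8, against 37.6% of the 8449 genes, and was at 0 for 2 of the 8, against 15.2%. Since the members were chosen with this contrast known, nothing is read from these shares. In bulk RNA, fewer cells of a type and less RNA per cell cannot be told apart.

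**Figure D1:**
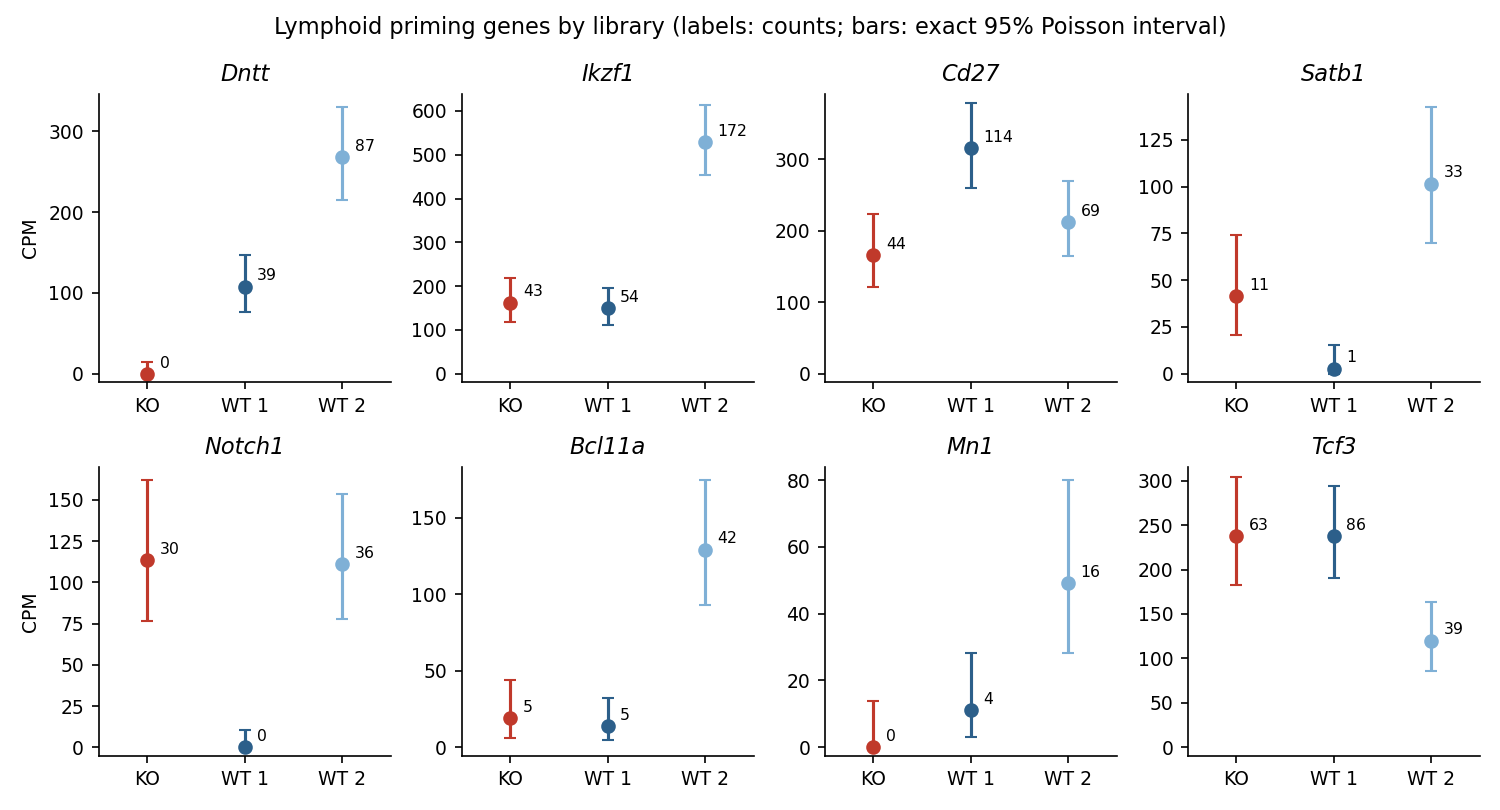
CPM of each lymphoid priming gene in the KO library (red) and in WT replicates 1 and 2 (blue), with the count beside each point and the exact 95% Poisson interval as the bar, which covers counting error only. Dntt and Mn1 are at 0 in KO, and 6 of the 8 genes have WT libraries at least 2-fold apart.

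Dntt encodes the polymerase that adds untemplated nucleotides at the joints of rearranging antigen receptor genes. It is a protein-coding gene on chromosome 19 at 41029275 to 41059525 on the plus strand (mm10), and no other gene in the annotation overlaps it. It had 0 counts in the KO library, against 39 and 87 counts in WT replicates 1 and 2. This was 0 CPM in KO, with an exact Poisson upper bound of 13.9, against 108 CPM (95% interval 76.7 to 147) and 268 CPM (214 to 330) in WT. The KO library was the low one, with its bound under both WT intervals, and the WT libraries also differed, by 2.48-fold (1.68 to 3.72). With KO set to the limit of 3 counts, Dntt would be 16.6-fold lower than the WT mean of 188 ± 113 CPM (SD, n = 2). The folds would be 9.52 for WT replicate 1 and 23.6 for WT replicate 2. These folds take the WT counts as exact. With counting error in both libraries, the 95% interval of the ratio of KO to WT reached up to 0.136 for WT replicate 1 and 0.0532 for WT replicate 2.

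The 2 transcript rows of Dntt held the same count as each other in every library. In GENCODE the transcript of NM_009345 has a coding exon of its own, exon 11, of 60 bases at 41058567 to 41058626. The authors' FPKM (fragments per kilobase of transcript and per 1e6 fragments) stood wholly on the other row, NM_001043228, with 0 in KO and 52.4 and 130 in WT.

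The upstream sequences of Dntt and Cd27 are shown because, of the members with 50 counts or more, these lay below both WT libraries in KO. Each is the 250 bases before a RefSeq start of transcription on GRCm38.p6, written 5′ to 3′ on the gene's strand. The windows are chr19:41029025-41029274 (plus strand) for Dntt and chr6:125237028-125237277 (minus strand) for Cd27. Capitals mark matches on either strand to CANNTG, the E-box that E proteins bind, and to GGGAA, the core that Ikaros binds, and 0 matches overlap each other in these windows.
Dntt: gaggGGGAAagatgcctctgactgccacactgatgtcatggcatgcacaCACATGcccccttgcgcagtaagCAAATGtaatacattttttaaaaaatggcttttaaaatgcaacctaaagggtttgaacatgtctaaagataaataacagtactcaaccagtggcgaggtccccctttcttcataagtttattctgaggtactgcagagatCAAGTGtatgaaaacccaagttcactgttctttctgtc
Cd27: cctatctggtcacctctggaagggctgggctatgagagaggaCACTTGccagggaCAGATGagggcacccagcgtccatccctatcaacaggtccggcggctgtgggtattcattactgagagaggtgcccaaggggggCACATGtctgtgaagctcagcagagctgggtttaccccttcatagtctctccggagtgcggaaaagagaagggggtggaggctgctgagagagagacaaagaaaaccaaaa

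The Dntt window held 3 E-box matches and 1 Ikaros core match, and the Cd27 window held 3 E-box matches and 0 Ikaros core matches. Of the 32851 RefSeq windows of this length, 66.2% held the E-box and 56.2% the Ikaros core. The table matched 7 of the 8 symbols, all but Mn1, with 12 windows, of which 6 held the E-box and 7 the Ikaros core. A match is a description of the letters and no evidence of a binding site.

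Cd27 is a TNF receptor family member found on multipotent progenitors and lymphocytes and absent from the most quiescent mouse stem cells. It lies on chromosome 6 at 125232622 to 125237010 on the minus strand. Cd27 had 44 counts in KO, against 114 and 69 in WT, which is 166 CPM (121 to 223) in KO and 315 (260 to 379) and 212 (165 to 269) CPM in WT. The KO library was the lowest, and its interval overlapped that of WT replicate 2 and not that of WT replicate 1. The ratio of KO to WT was 0.527 (0.364 to 0.753) for WT replicate 1 and 0.783 (0.524 to 1.16) for WT replicate 2, so the interval for WT replicate 2 includes a ratio of 1.

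The place of KO for Cd27 depended on the transcript row. On NM_001033126, which gave the gene count, KO was below both WT libraries. On NM_001042564 the counts were 43 in KO and 88 and 49 in WT, or 162 CPM in KO and 243 and 151 CPM in WT, so KO lay between the WT libraries. On NM_001286753 they were 43 in KO and 88 and 61 in WT. NM_001033126 alone includes exon 3, with 180 coding bases at 125234515 to 125234694, and 531 non-coding bases of exon 6. The authors' FPKM for NM_001033126 was 12.7 in KO and 202 and 137 in WT, and that for NM_001042564 was 118 in KO and 0 in both WT libraries. Cd27 lies inside the span of Vamp1 on the opposite strand, which had 0 counts in KO and 29 and 10 in WT, and hosts the miRNA gene Mir8113, with 0 counts in KO and 4 and 0 in WT. As the sources used here do not state how strand was used, reads from overlapping genes cannot be told apart. The same limit holds for Ikzf1, Satb1, Notch1, Bcl11a and Mn1, which other genes in the annotation also overlap.

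Notch1 encodes the receptor whose signal commits progenitors to the T lineage. The gene lies on chromosome 2 at 26457903 to 26516663 on the minus strand and has 1 transcript row. It had 30 counts in KO, against 0 and 36 in WT, which is 113 CPM (76.5 to 162) in KO and 0 (upper bound 10.2) and 111 (77.6 to 153) CPM in WT. KO and WT replicate 2 were close, with a ratio of 1.02 (0.609 to 1.71), and WT replicate 1 stood apart from both. The WT mean of 55.4 ± 78.3 CPM (SD, n = 2) is near neither WT library.

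Ikzf1 encodes the zinc finger protein Ikaros, and mice without it lack B cells. It lies on chromosome 11 at 11685003 to 11772926 on the plus strand. It had 43 counts in KO, against 54 and 172 in WT, or 162 CPM (118 to 219) in KO and 149 (112 to 195) and 529 (453 to 615) CPM in WT. The KO interval overlapped that of WT replicate 1 and lay below that of WT replicate 2, with ratios of KO to WT of 1.09 (0.711 to 1.65) for replicate 1 and 0.307 (0.214 to 0.431) for replicate 2. The WT libraries differed by 3.54-fold (2.60 to 4.91), so KO differed less from WT replicate 2 than WT replicate 1 did. The 6 transcript rows gave like counts, with 41 to 43 in KO, and with 54 and with 162 to 172 in WT.

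Tcf3 encodes E12 and E47 through alternative exons, and both act at the start of B cell development. The gene lies on chromosome 10 at 80409514 to 80433647 on the minus strand, with no overlapping gene. It had 63 counts in KO, against 86 and 39 in WT, or 238 CPM (183 to 305) in KO and 238 (190 to 294) and 120 (85.3 to 164) CPM in WT. KO and WT replicate 1 had nearly the same level, and WT replicate 2 was the low library. The ratio of KO to WT replicate 1 had an interval of 0.711 to 1.40, and that of KO to WT replicate 2 was 1.98 (1.31 to 3.04). Of its 8 rows, 3 had 62 counts in KO and 70 and 39 in WT, and the other 5 had 63 counts in KO and 86 and 39 in WT.

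Bcl11a encodes a zinc finger repressor that B cell development requires and that silences fetal globin in humans. It lies on chromosome 11 at 24078056 to 24174123 on the plus strand. It had 5 counts in KO, against 5 and 42 in WT, or 18.9 CPM (6.13 to 44.1) in KO and 13.8 (4.49 to 32.3) and 129 (93.2 to 175) CPM in WT. KO overlapped WT replicate 1, with a ratio of 1.37 (0.314 to 5.94), and both lay below WT replicate 2.

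The 42 counts of Bcl11a in WT replicate 2 were on the row NM_001242934, which had 5 counts in KO and 0 in WT replicate 1. On NM_016707 the count was 5 in KO and 5 and 6 in WT, and on each of the other rows it was 0 in KO and 5 and 5 in WT. The gap between the WT libraries was thus on 1 row of 4. In GENCODE the transcript of NM_001242934 has a stretch of its own of 3541 bases in exon 4, at 24164889 to 24168429, of which 275 are coding and the rest lie in the 3′ UTR. An antisense gene at 24160528 to 24172824, not analysed here, spans that stretch, and its reads cannot be told apart from those of Bcl11a without strand.

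**Figure D2:**
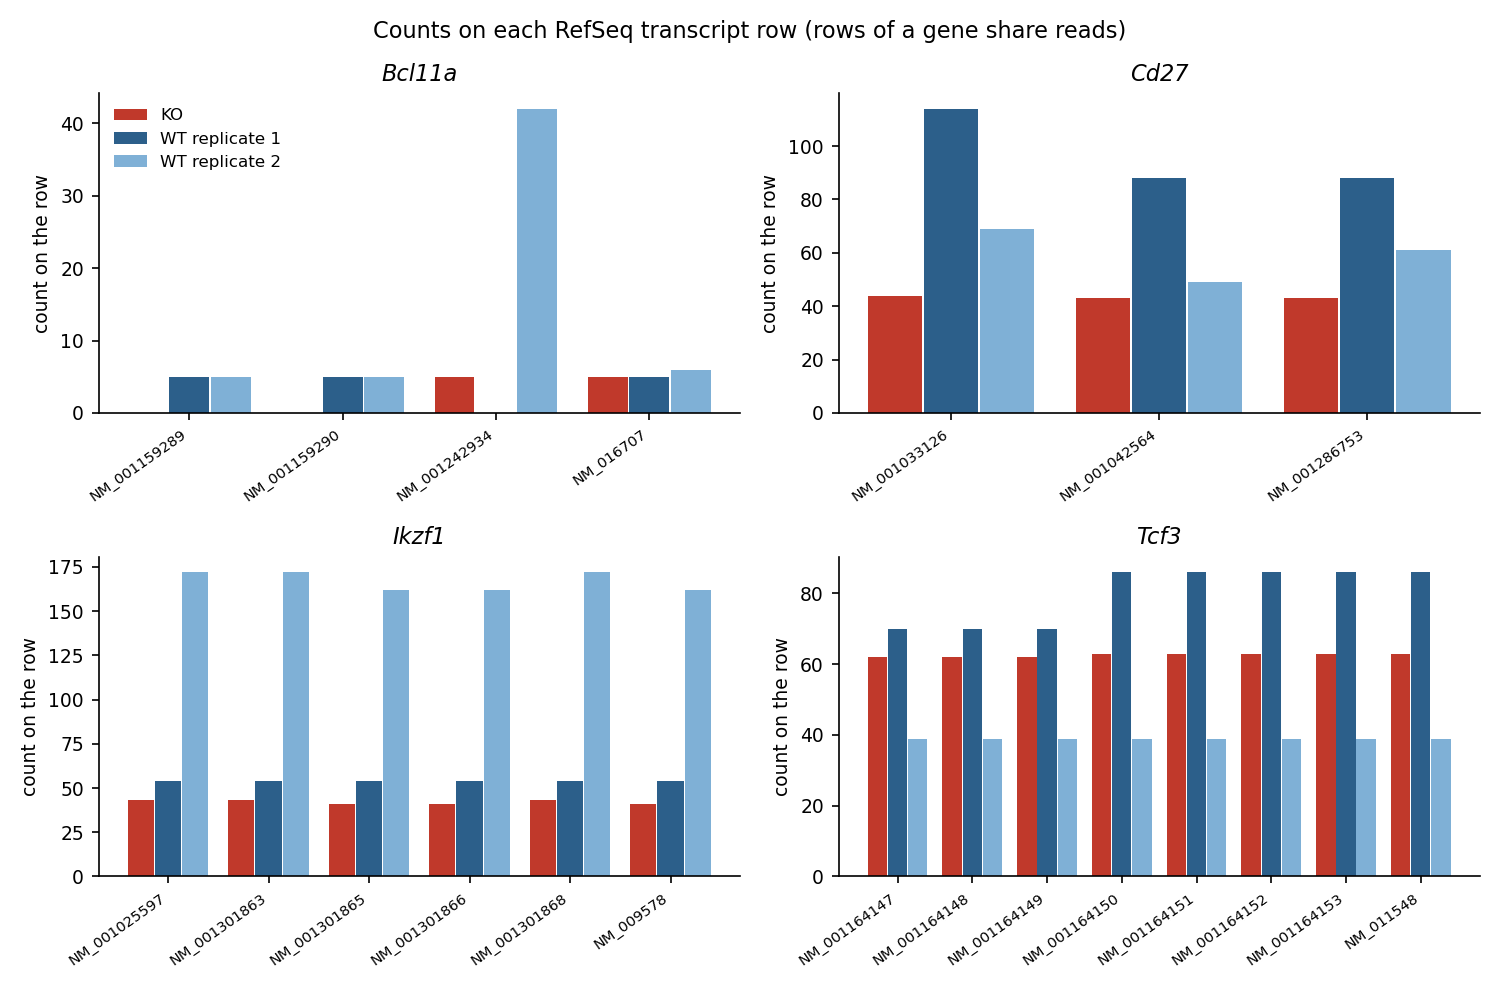
Counts on each RefSeq transcript row of Bcl11a, Cd27, Ikzf1 and Tcf3 in the KO library (red) and WT replicates 1 and 2 (blue), where rows of a gene repeat their shared reads. Ikzf1 has 41 to 43 counts on every row in KO, whereas Bcl11a has 42 counts in WT replicate 2 on NM_001242934 and at most 6 on its other rows or in the other libraries.

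Satb1 encodes a chromatin organiser that acts in T cell and early lymphoid development. It lies on chromosome 17 at 51736187 to 51833290 on the minus strand. It had 11 counts in KO, against 1 and 33 in WT, or 41.6 CPM (20.7 to 74.4) in KO and 2.77 (0.0700 to 15.4) and 102 (69.9 to 143) CPM in WT. KO lay between the WT libraries, above the interval of WT replicate 1, and its interval met that of WT replicate 2 at its upper end. The ratio of KO to WT was 15.0 (2.18 to 647) for WT replicate 1 and 0.409 (0.187 to 0.830) for WT replicate 2, and both intervals leave out a ratio of 1. The WT libraries differed by 36.7-fold (6.15 to 1494), an interval widened by the 1 count in WT replicate 1.

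Mn1 encodes a transcriptional coactivator that drives myeloid leukaemia in mice when overexpressed. The gene lies on chromosome 5 at 111417362 to 111457033 on the plus strand. It had 0 counts in KO, against 4 and 16 in WT, or 0 CPM (upper bound 13.9) in KO and 11.1 (3.01 to 28.3) and 49.2 (28.1 to 80.0) CPM in WT. KO was the low library, and its bound overlapped the interval of WT replicate 1 and not that of WT replicate 2. With KO set to 3 counts, Mn1 would be 4.34-fold lower than WT replicate 2. This fold takes the WT count as exact. With counting error in both libraries, the interval of the ratio of KO to WT reached up to 0.318 for WT replicate 2. For WT replicate 1 it reached up to 2.07. No fold is given against WT replicate 1, which is under the KO limit of 11.3 CPM.

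**Figure D3:**
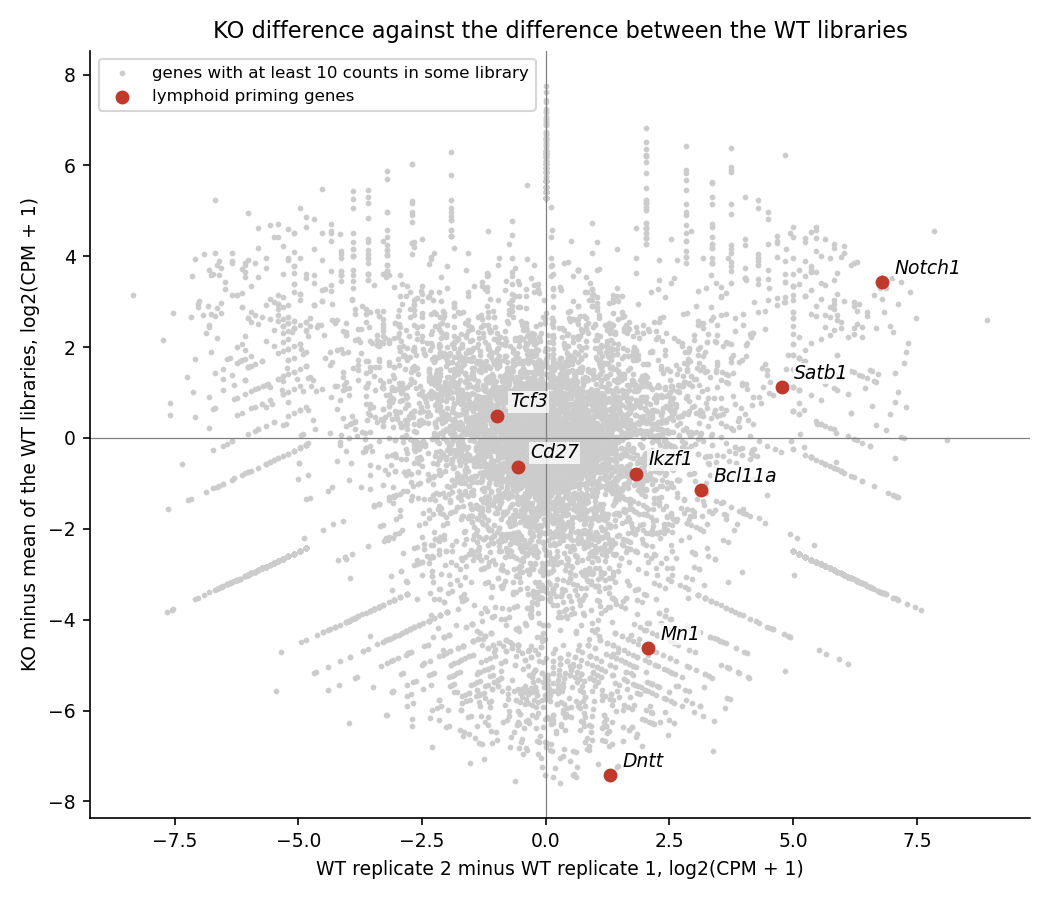
Difference of the KO library from the mean of the WT libraries (vertical) against WT replicate 2 minus WT replicate 1 (horizontal), both on log2(CPM + 1), for genes that reach 10 counts in any library (grey) and the 8 lymphoid priming genes (red). Dntt has the lowest vertical value of the 8, whose size the added 1 CPM sets (-7.42, against -4.18 with 10 CPM added), while Satb1 and Notch1 lie far to the right, where the WT libraries differ most.

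WT replicate 2 was the higher WT library for Dntt, Ikzf1, Satb1, Notch1, Bcl11a and Mn1, and WT replicate 1 for Cd27 and Tcf3. For each of the 8 genes the exact 95% interval of the ratio between the WT libraries left out 1. Such intervals hold counting error alone: the reads carry no molecular identifiers and may include copies of one molecule.

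Levels can be compared between genes only per length, for which FPKM was summed over a gene's rows. In WT, Cd27 averaged 170 ± 46.5 FPKM, Dntt 91.3 ± 55.1, Ikzf1 69.2 ± 56.4 and Tcf3 54.5 ± 25.3 (SD, n = 2). Bcl11a averaged 15.5 ± 8.23 FPKM in WT, Satb1 8.71 ± 11.7, Notch1 6.62 ± 9.37 and Mn1 4.44 ± 3.98. Cd27 was the highest in both WT libraries, at 202 and 137 FPKM, the lower of which was close to the higher FPKM of Dntt, 130. The lowest WT value of the upper 4 genes, 29.3 FPKM for Ikzf1, was above the highest of the lower 4, 21.3 FPKM for Bcl11a. Among Dntt, Ikzf1 and Tcf3, and among the lower 4, neighbours in the order had overlapping WT values.

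In the KO library Cd27 was also highest in FPKM, at 130, followed by Tcf3 at 73.1 and Ikzf1 at 33.7. Notch1 had 13.6 FPKM in KO, Satb1 7.15 and Bcl11a 6.75, and Dntt and Mn1 were listed at 0. Dntt thus ranked 2 of 8 by WT mean and shared the last place with Mn1 in KO. The order depended on summing rows: by the FPKM of the row with the highest count, Cd27 had 12.7 in KO, below Tcf3 at 36.3, Ikzf1 at 28.1 and Notch1 at 13.6. On that measure Satb1 had 2.90 in KO and 0.191 and 7.07 in WT, which puts its WT mean below those of Notch1 and Mn1.

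**Figure D4:**
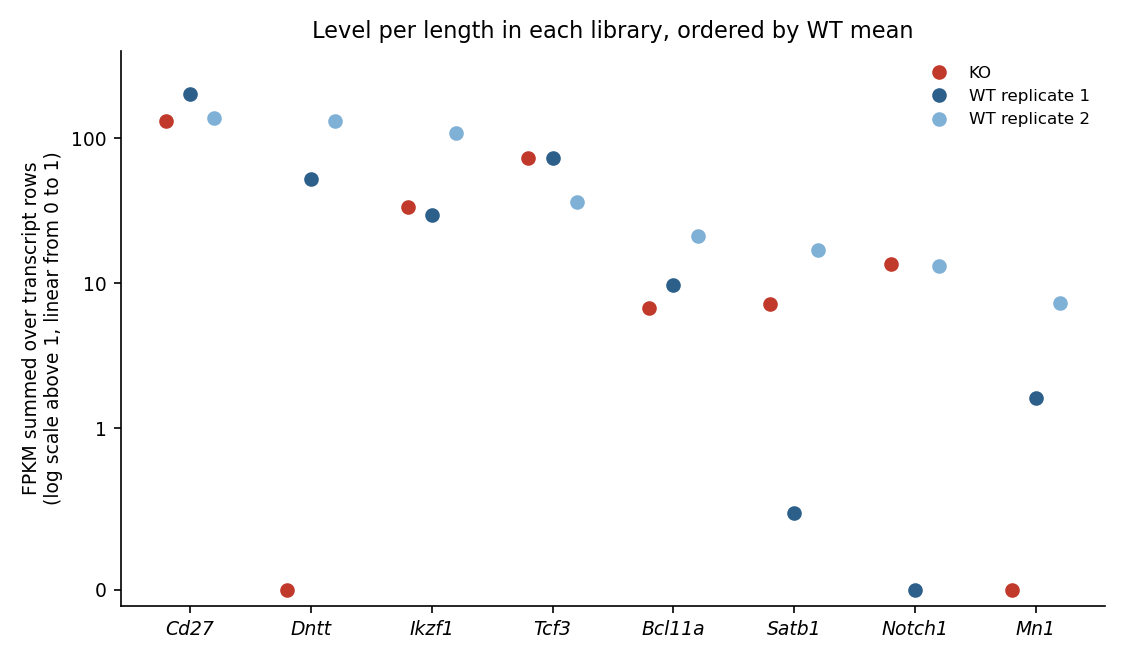
FPKM summed over transcript rows for each gene in the KO library (red) and WT replicates 1 and 2 (blue), ordered by WT mean, on an axis that is logarithmic above 1 and linear from 0 to 1. The 4 genes on the left are above the 4 on the right in each WT library, and Dntt is at 0 in KO.

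Likeness to Dntt and Ikzf1 was measured as the Euclidean distance of log2(CPM + 1) over the 3 libraries, among the 2831 genes that reach 50 counts. The genes nearest to Dntt were Map7 (distance 0.26), Usf3 (0.31), Dcps (0.37), Nt5dc2 (0.49) and Pglyrp2 (0.52). All 5 had 0 counts in KO, as did 98 of the 2831 genes compared, and since the distance includes the KO library, nearness to Dntt calls for a low KO value. Map7, which encodes a microtubule-associated protein, had 0 counts in KO and 33 and 81 in WT, and Dcps, which encodes the scavenger decapping enzyme, had 0 in KO and 36 and 68 in WT. The genes nearest to Ikzf1 were Uqcrc1 (0.30), H2afx (0.35) and Slc25a5 (0.38). Uqcrc1, a subunit of respiratory complex III, had 49 counts in KO and 63 and 163 in WT.

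All genes were also fitted together with edgeR's quasi-likelihood test, Benjamini-Hochberg adjustment and a threshold of 0.05. The fit takes the spread of the KO library to be that of the WT libraries. It called 8 of 7984 genes higher in KO (0.1%) and 0 lower (0%), and at unadjusted p under 0.05 it gave 282 higher and 520 lower. Of the 8 lymphoid priming genes, 0 were called by edgeR and 0 by DESeq2, which called 11 genes higher and 2 lower, and nothing is read from this. The median log2 fold change of the 8 was -0.82 (also with genes at 0 set to the limit), with 6 negative, against -0.31 over all genes tested, with 56.9% negative. Without WT replicate 1 the median was -1.44, and without WT replicate 2 it was 0.09 with 3 of 8 negative, so its sign depended on WT replicate 2. Over all genes tested the median was -0.13 without WT replicate 1 and -0.11 without WT replicate 2.

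Other genes of the same pathways were counted from 8 lists by function that leave out the members. Of the 79 tested genes of these lists, 0 were called higher and 0 lower in KO, by edgeR and by DESeq2. Unadjusted p under 0.05 was found for 0 genes with a higher and 4 with a lower KO level by edgeR, and for 1 and 9 by DESeq2. Over all 7984 genes tested it was found for 282 and 520 by edgeR, and for 318 and 737 by DESeq2. Nothing is read from the counts of the lists.

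Of 22 early lymphoid progenitor genes listed, 13 had 0 counts in all 3 libraries, as did 13580 of the 24982 symbols measured. Since a count of 0 was common over all genes, nothing is read from the 13. Among them were Il7r, which encodes a receptor chain for interleukin 7, and the recombinase genes Rag1 and Rag2. The transcription factor genes Ebf1, Tcf7 and Bcl11b were also among them. Dntt was thus detected in WT libraries in which these 13 had none. Of the 6 tested, 3 were negative and 3 positive, with a median log2 fold change of -0.20. The median was -0.49 with counts summed over rows, -0.53 without a filter and also -0.53 with a stricter one (10 counts in every library or 50 in any), and -0.12 without WT replicate 1. Flt3, a cytokine receptor of multipotent and lymphoid-primed progenitors, had 56 counts in KO and 104 and 151 in WT, or 212 CPM in KO and 376 ± 125 CPM in WT (SD, n = 2). Its edgeR adjusted p was 0.82. Mef2c, a transcription factor gene of lymphoid priming, had 75.6 CPM in KO and 111 ± 55.8 CPM in WT (adjusted p 0.94). Lmo4, which encodes a LIM-only protein, had 113 CPM in KO and 107 ± 68.2 CPM in WT (adjusted p 0.99).

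Of 31 Notch pathway genes, 20 were tested and 0 called, and 18 were negative (90.0%, against 56.9% of all genes tested). The median log2 fold change was -1.21, or -1.07 with genes at 0 set to the limit of 3 counts, against -0.31 over all genes. It was -0.66 without WT replicate 1, -1.11 without WT replicate 2 and -0.76 with the stricter filter. Over all genes the median was -0.13, -0.11 and -0.10 in the same settings. Without WT replicate 1, 17 of the 20 were negative, against 4212 of all 7984 genes. Without WT replicate 2, 14 of the 20 were negative, against 4331 of all 7984 genes. Adam10, the protease that cuts ligand-bound Notch, had 18 counts in KO and 83 and 89 in WT, a log2 fold change of -1.84 (edgeR adjusted p 0.61). Mfng and Rfng encode fringe glycosyltransferases, which modify Notch. Mfng had 31 counts in KO and 64 and 101 in WT (adjusted p 0.82), and Rfng had 25 in KO and 76 and 47 in WT (adjusted p 0.86). Adam10, Mfng and Rfng, among the most abundant tested genes of the list, were below both WT libraries in KO on CPM, and Notch1 was not. The 2 positive genes of the list were Adam17, another protease that can cut Notch, and Psenen, a gamma-secretase subunit gene. Adam17 had 68 counts in KO and 40 and 7 in WT, a log2 fold change of 1.98 (edgeR adjusted p 0.56), and Psenen had 36 in KO and 17 and 35 in WT (adjusted p 0.89). The target genes Hes1, Hey1 and Dtx1 and the ligand genes Dll1 and Dll4 had 0 counts in all 3 libraries. They are among 7 of the 31 listed at 0 throughout, against 13580 of all 24982 symbols. Other such genes had low counts. Nrarp, also a target gene, had 0 counts in KO and 14 and 0 in WT, and Dtx4 had 0 in KO and 13 and 4 in WT. The ligand gene Jag1 had 0 in KO and 8 and 0 in WT, and Jag2 had 4 in KO and 0 and 4 in WT.

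Of 15 genes of V(D)J recombination and end joining, the reaction in which Dntt acts, 8 were tested and 0 called, with 5 negative. The median log2 fold change was -1.94, or -1.14 with genes at 0 set to the limit, -1.16 without a filter, and 0.50 with the stricter filter. Xrcc6, which encodes the DNA end-binding protein Ku70, had 3 counts in KO and 40 and 38 in WT (log2 fold change -3.24, edgeR adjusted p 0.56). Hmgb1 and Hmgb2 encode chromatin proteins that assist the RAG recombinase. Hmgb1 had 102 counts in KO and 44 and 36 in WT (adjusted p 0.51), and Hmgb2 had 196 in KO and 268 and 174 in WT (adjusted p 0.93). Paxx, an end-joining factor, had 17 counts in KO and 11 and 20 in WT (adjusted p 0.95).

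Among the Ikaros family and the NuRD chromatin remodelling complex that Ikaros binds, 17 of 19 genes were tested and 0 called, with 8 negative and a median log2 fold change of 0.02, which was 0.19 without WT replicate 2 and -0.12 without a filter. Chd4, the ATPase of NuRD, had 858 CPM in KO and 469 ± 189 CPM in WT (SD, n = 2; edgeR adjusted p 0.62). Chd3, its paralogue, had 468 CPM in KO and 298 ± 90.8 CPM in WT (adjusted p 0.82). The remodeller gene Smarca4 had 623 CPM in KO and 536 ± 31.6 CPM in WT (adjusted p 0.94), and the NuRD subunit gene Mta1 had 223 CPM in KO and 286 ± 64.9 CPM in WT (adjusted p 0.95). The tested genes of the list were thus divided in direction.

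Among E proteins, Id proteins and their partners, 5 of 10 genes were tested and 0 called, with 1 negative and a median log2 fold change of 0.24. Without WT replicate 1 the median was 0.61 with 2 negative, and without a filter it was 0.45. Tcf4, which encodes the E protein E2-2, had 128 CPM in KO and 48.9 ± 16.9 CPM in WT (SD, n = 2; edgeR adjusted p 0.82). Lyl1 and Tal1 encode bHLH partners of E proteins. Lyl1 had 434 CPM in KO and 429 ± 67.5 CPM in WT (adjusted p 0.99), and Tal1 had 90.7 CPM in KO and 78.0 ± 93.0 CPM in WT (adjusted p 0.98). Cbfa2t3, a corepressor gene, had 359 CPM in KO and 268 ± 35.4 CPM in WT (adjusted p 0.91).

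In the list around Cd27, 8 of 11 genes were tested and 0 called, with 4 negative and a median log2 fold change of -0.06. The median was -0.23 without WT replicate 1, -0.27 without WT replicate 2, -0.52 without a filter and -0.53 with the stricter filter. The ligand gene Cd70 had 0 counts in all 3 libraries. Traf3, an adaptor that restrains the alternative NF-kB pathway, had 5 counts in KO and 56 and 50 in WT (log2 fold change -2.97, edgeR adjusted p 0.49). Traf2, an adaptor that binds Cd27, had 17 counts in KO and 22 and 22 in WT (adjusted p 0.98). The ubiquitin ligase gene Birc3 had 33 counts in KO and 41 and 57 in WT (adjusted p 0.98), and the kinase gene Chuk had 14 in KO and 34 and 33 in WT (adjusted p 0.91).

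In the Mn1 and Hox leukaemia list 9 of 12 genes were tested and 0 called, with 7 negative and a median log2 fold change of -0.97, which was -1.36 without WT replicate 1, -0.48 without WT replicate 2 and -0.58 with the stricter filter. Meis1, a Hox cofactor gene, had 117 CPM in KO and 281 ± 85.1 CPM in WT (SD, n = 2; edgeR adjusted p 0.77). Dot1l, which encodes the methyltransferase of histone H3 lysine 79, had 64.2 CPM in KO and 220 ± 41.1 CPM in WT (adjusted p 0.67). Kmt2a, the MLL methyltransferase gene, had 249 CPM in KO and 197 ± 17.0 CPM in WT (adjusted p 0.94).

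Among the partners of Bcl11a and Satb1, 6 of 10 genes were tested and 0 called, with 5 negative and a median log2 fold change of -0.73. Without WT replicate 1 the median was -0.21, with 3 of 6 negative. Lmo2 and Ldb1 encode an adaptor pair of haematopoietic transcription complexes. Lmo2 had 1005 CPM in KO and 809 ± 279 CPM in WT (SD, n = 2; edgeR adjusted p 0.86), and Ldb1 had 310 CPM in KO and 391 ± 99.6 CPM in WT (adjusted p 0.94). Ctcf, the insulator protein gene, had 102 CPM in KO and 175 ± 108 CPM in WT (adjusted p 0.89), and Kdm1a, a histone demethylase gene, had 64.2 CPM in KO and 109 ± 59.7 CPM in WT (adjusted p 0.92).

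**Figure D5:**
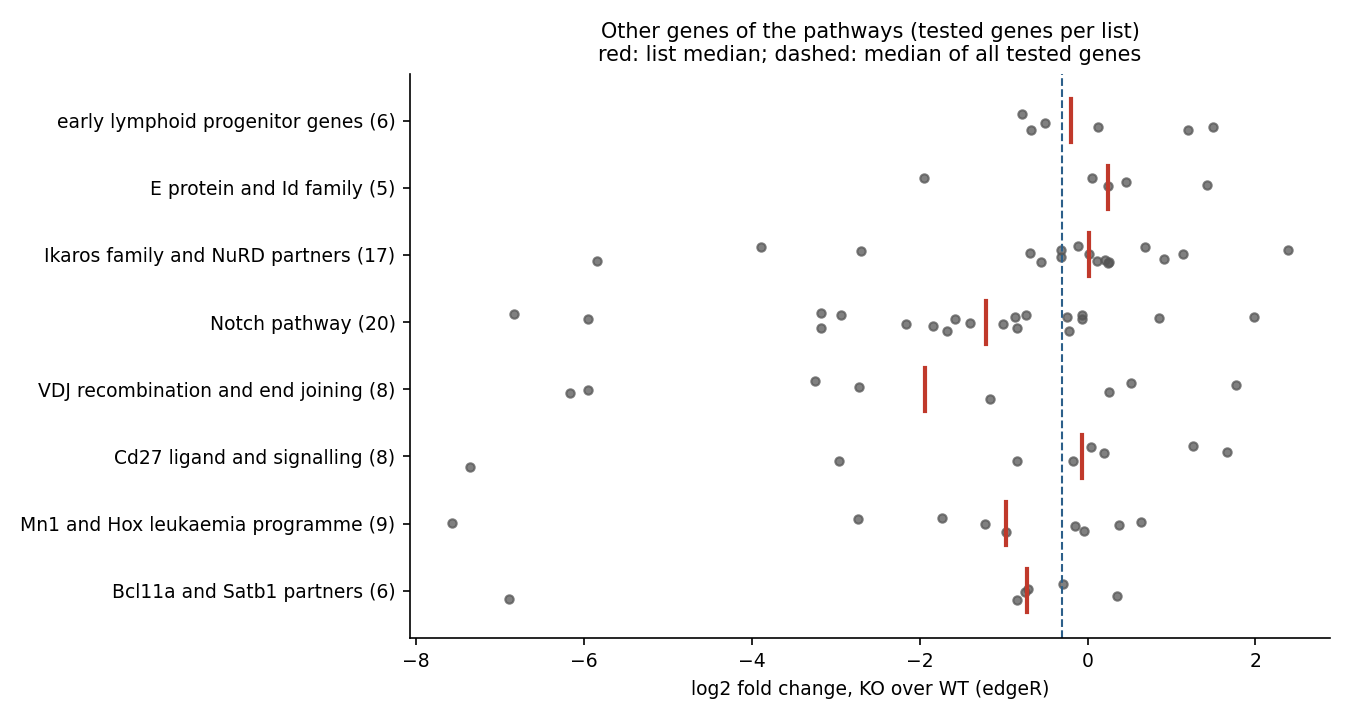
edgeR log2 fold change of KO over WT for each tested gene (grey points) of the 8 pathway lists, with the list median (red bar) and the median of all 7984 tested genes at -0.31 (dashed line). The Notch pathway and the V(D)J and end joining lists have medians of -1.21 and -1.94, and 0 genes of any of these lists were called.

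Markers of other cell types also differed between the libraries. The 12 dendritic cell markers summed to 3290 CPM in KO and to 152 and 708 CPM in WT, with Siglech, Batf3, Cd209a and Zbtb46 at 0 in all 3 libraries. The 10 neutrophil markers summed to 378 CPM in KO and to 827 and 1114 CPM in WT, with Ly6g at 0. The dendritic list was thus highest in KO and the neutrophil list lowest. The dendritic list also holds H2-Aa, H2-Ab1, H2-Eb1, Cd74 and Irf8, and whether its sum reflects the share of dendritic cells was not tested. The 11 monocyte and macrophage markers summed to 589 CPM in KO and to 202 and 695 CPM in WT, with Cd14 and Fcgr1 at 0. The 12 erythroid markers summed to 778 CPM in KO and to 484 and 129 CPM in WT, with Hbb-bs, Hba-a1, Hba-a2 and Klf1 among those at 0. The 11 stroma and endothelium markers summed to 132 CPM in KO and to 252 and 292 CPM in WT, with 8 at 0.

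Of the marker lists, that of the B lineage had the lowest sum in each library. The T and NK list was above the dendritic cell, monocyte and macrophage, and stroma lists in WT replicate 1. The 11 B lineage markers summed to 52.9 CPM in KO and to 16.6 and 73.9 CPM in WT, with 6 at 0 in all 3 libraries (Cd79a, Ms4a1, Ebf1, Igll1, Vpreb3 and Blnk). The 11 measured T and NK markers summed to 155 CPM in KO and to 304 and 105 CPM in WT, with 7 at 0 (Cd3e, Cd3g, Cd8a, Cd2, Klrb1c, Ncr1 and Zap70). The 10 markers of the LKS gate and early progenitors summed to 1572 CPM in KO and to 2113 and 2480 CPM in WT. None was at 0 in all 3 libraries, but 8 were detected in KO and 10 in each WT library. Slamf1 had 0 counts in KO and 3 and 9 in WT, and Mecom had 0 in KO and 31 and 21 in WT. Cd79a and Cd3e were thus without counts where Dntt was detected, but other lymphocyte markers were present in those same libraries. The B lineage list had 2 markers detected in the first WT replicate and 5 in the second. For the T and NK list these numbers were 4 and 2. The KO library had 2 markers detected of the B lineage list and 1 of the T and NK list. The part of the other cell types in the values of the lymphoid priming genes was not tested.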

How the data were processed

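The RNA-seq libraries were grouped by their titles, read with the design text. The authors deposited 1 file a library without headers, with whole-number raw counts per RefSeq transcript and FPKM values per transcript, units read from the values. STAR and mm10 are named, with neither version nor role, in the submitters' processing notes. Which tools made the counts and FPKM, and whether strand was used, is not given in the sources used here. A gene's count was the highest over its transcript rows (42574 rows, 8313 symbols with several), and CPM used the total of gene counts. Between 1317 and 1911 genes a library reached 50 counts, which limits precision.

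The members and lists were chosen with earlier results of these data known. edgeR 4.0.16 (R 4.3.3) was run with filterByExpr, TMM and 1 residual degree of freedom after being tested on simulated data, and DESeq2 1.42.0 was an alternative. Intervals at 95% are exact Poisson for counts and conditional binomial for ratios. The FPKM of the highest row, as first planned, was replaced by the sum over rows once it was seen that the authors' estimates divide a gene between rows. Named were the members, Nt5e, called genes and up to 4 of the most abundant genes of each list, the 5 genes nearest to Dntt and the 3 nearest to Ikzf1. Some genes that this rule names are not reported here. Kit, Ly6a, Vamp1, Adam17, Psenen, Nrarp, Dtx4, Jag1, Jag2, Mir8113, H2-Aa, H2-Ab1, H2-Eb1, Cd74 and Irf8 were chosen after their values were seen. So were list genes named for a count of 0 and the genes under the other observations. Positions are from GENCODE M21. Alternatives were scaling, count per gene, filters, pseudocount, FPKM and leaving out each WT library, which leaves 1 library a group and hence values with no test.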

Additional observations from a re-analysis of the deposited data

How the results depend on the processing

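The count of genes called higher was 8; it was 0 with counts summed over transcript rows, 1 with their mean, 4 without a filter and 0 with at least 10 counts in every library or 50 in some library, and 6, 7 and 11 with DESeq2 size factors, library totals and DESeq2. The count of genes called lower was 0 in each of these settings except DESeq2, with 2. The cause was not tested. By the size rule, 262 genes were higher and 508 lower in KO; with summed rows these were 519 and 970, with at least 10 counts in some library (chosen after seeing the data) 1132 and 1989, with 20 counts 763 and 1444, and with 200 counts 6 and 9, where the filter changes how many genes are counted. Leaving out a WT library gave 512 to 600 higher and 800 to 811 lower genes, since KO then has to pass only 1 library. Of the members, 1 (Dntt) was lower by the size rule. It was 2 with at least 10 counts, with Mn1. When a WT library was left out it was 1 to 2, the other being Ikzf1 without WT replicate 1. With the highest FPKM of any row, or FPKM summed over rows, the number was 1. The FPKM of the row with the highest count was not among these settings. By that measure Cd27 was also more than 2-fold lower, at 12.7 in KO against 202 and 137 in WT. Pathway genes called were 0 under each edgeR setting and DESeq2. The median of the Ikaros and NuRD list was -0.03 with library totals, -0.06 with summed rows and -0.12 without a filter, and that of the V(D)J and end joining list was 0.50 with the stricter filter; no other pathway list median changed sign in these settings or without a WT library.

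On log2(CPM + 1), Dntt, Cd27 and Mn1 stayed negative and Notch1 and Tcf3 positive in all 10 alternatives, with Dntt at -7.42, and at -4.18 with 10 CPM added. Without WT replicate 2, Ikzf1 was 0.12 and Bcl11a 0.42, against -0.79 and -1.14 with both, and without WT replicate 1 Satb1 was -1.27, against 1.11. Tcf3 was 0.00 without WT replicate 2 and also with the highest FPKM of any row, and Notch1 was 0.03 without WT replicate 1. In these settings the positive sign rests on a value near 0. Depth limits Satb1, Bcl11a, Notch1 and Mn1 most, with at most 42 counts in any library. No paired analysis was possible because the KO library carries no replicate number and is alone in its group.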

Other observations

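Among the 79 tested other genes of the pathways, 4 had an unadjusted p under 0.05 in edgeR's quasi-likelihood test. All 4 were lower in KO, and 0 of them passed adjustment. Over all 7984 genes tested, 520 were lower at this unadjusted p. Apart from Traf3 the 4 were picked out after their values were seen. Mecom, a transcription factor of long-term stem cells, had 0 counts in KO, against 31 and 21 in WT (adjusted p 0.33). Nfkb2, which encodes the p100 subunit of the alternative NF-kB pathway, had 0 counts in KO, against 16 and 28 in WT (adjusted p 0.41). Sin3a, a corepressor scaffold, had 2 counts in KO, against 19 and 62 in WT (adjusted p 0.45). Traf3 had 5 counts in KO, against 56 and 50 in WT (adjusted p 0.49). Hoxa9 had 5 counts in KO, against 55 and 36 in WT, with an adjusted p of 0.59. Tcf12, which encodes the E protein HEB, had 5 counts in KO, against 0 and 50 in WT, so the WT libraries stood on either side of KO.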
